A study of Homo sapiens with 12 samples.

Results

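MYC and 9 genes of the nucleolus (NCL, NPM1, FBL, NOP56, NOP58, NOLC1, POLR1B, RRS1 and BOP1) were followed through insulin stimulation of HepG2 cells, an established human liver cancer line. The 10 genes were taken by symbol from the 26364 genes of the count table, and each of them was among the 13852 genes with enough reads for a test. RNA was sequenced at 0, 5, 10, 30 and 240 min after insulin stimulation, with 2 replicates at each of the 5 times. The treatment text of all 10 libraries describes cells kept in EMEM for 16 h and then given EMEM with bovine serum albumin and 3 nM insulin. It names 5 min of insulin for every library, 0 min included, and the times used here were those of the sample titles. The 0 min libraries were read as unstimulated from their titles, although their treatment text names insulin too. No library was kept for 240 min without insulin, so that the effects of insulin and of elapsed time in the medium cannot be told apart. The authors describe the samples as biologically independent and the time course as a single experiment, and p-values measure the spread between these libraries. A second experiment precipitated the insulin receptor (IR) with its bound chromatin (ChIP-seq) in HepG2 cells kept in EMEM for 2 days, cultured with insulin and albumin, washed and stimulated again with 3 nM insulin, and gave 1 library with 1971 peaks.

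Ribosomes are built in the nucleolus. RNA polymerase I transcribes the precursor of ribosomal RNA, small nucleolar ribonucleoproteins (snoRNPs) guide its modification and cleavage, and assembly factors fold it with ribosomal proteins into the small and large subunits. MYC, a transcription factor that binds the E-box letters CACGTG as a dimer with MAX, is known to raise transcription of many of these genes in growing cells. Insulin is known as a growth signal to the liver, and ribosome production is among the processes that growth signals control.

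Between 18347109 and 45005769 reads per library fell on genes. The deepest library was 0 min replicate 2, beside 21692103 reads in 0 min replicate 1, and these 2 are the baseline of each comparison with 0 min. The 92 rows of added spike-in RNA (ERCC) took 1.59% to 2.36% of the counts and stayed out of the library sizes, and the highest share stood in 10 min replicate 2. Replicates differed by more than counting error at each time, the chi-square over its degrees of freedom being 2.86 to 6.46. The hepatocyte markers had a summed level of 40443.6 to 50924.5 TPM (a level per transcript length, scaled within each library). Of these 9 genes 1, HNF4A, was higher at 240 min than at 0 min (log2 0.30, edgeR adjusted p = 0.000101), beside 20.6% of all tested genes. Of the 8 markers of immune, endothelial, mesenchymal and red cells, CD68 had 48.7 to 60.3 TPM and ACTA2 60.4 to 95.8 TPM. PECAM1, VWF and COL1A1 had up to 1.72 TPM, and PTPRC, COL1A2 and HBB had 0 TPM in all 10 libraries. All 8 markers together summed to 120.1 to 152.8 TPM, most of it from CD68 and ACTA2. Their sum was 120.1 and 127.8 TPM at 240 min and at least 129.0 TPM in each earlier library. Of the 5 tested 1 was lower at 240 min than at 0 min, ACTA2 (log2 -0.30, edgeR adjusted p = 0.00215), beside 20.4% of all tested genes. The part of these markers in the members' results was not tested. Fewer cells of a type and less RNA per cell cannot be told apart in such bulk RNA.

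Before insulin the members spanned a wide range of levels per length. NCL (chr2:232319459-232329205, minus strand, in hg19 coordinates as the authors' tables give them), which encodes nucleolin, an abundant RNA-binding protein of the nucleolus, stood at 1424.5 and 1437.4 TPM in the 0 min libraries. NPM1 (chr5:170814708-170837888, plus strand), which encodes the nucleolar chaperone nucleophosmin, stood at 1083.4 and 1077.6 TPM. These were the highest levels of the group. NOP56 (chr20:2633178-2639039, plus strand), a core protein of the C/D box snoRNPs, stood at 333.4 and 321.3 TPM. FBL (chr19:40325093-40337054, minus strand) encodes fibrillarin, the enzyme of those particles that methylates ribosomal RNA, and stood at 202.3 and 199.8 TPM. MYC (chr8:128748315-128753680, plus strand) at 161.4 and 158.8 TPM overlapped NOP58 (chr2:203130515-203168384, plus strand), another C/D box core protein, at 161.2 and 155.7 TPM, and these neighbours in the order could not be told apart. NOLC1 (chr10:103911933-103923628, plus strand), a chaperone of snoRNPs, followed at 125.3 and 125.0 TPM. RRS1 (chr8:67341263-67342968, plus strand), an assembly factor of the large subunit, had 44.5 and 40.6 TPM. POLR1B (chr2:113299492-113334729, plus strand), a core subunit of RNA polymerase I, had 37.8 TPM in both libraries. BOP1 (chr8:145486002-145515120, minus strand), which works with PES1 and WDR12 in large subunit assembly, was the lowest at 16.3 and 15.3 TPM. The counts of NPM1 are uncertain in level, since GENCODE holds 49 NPM1 pseudogenes whose reads the counting could share with it. The gene body of BOP1 overlaps SCX on the opposite strand, and its 127 to 326 reads per library made it the least precise member.

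In the first 30 min no member passed the test. Expression in each library is given below as CPM, counts scaled to library size with TMM. Against 0 min, 0 of the 10 members were called at 5 min, where 0% of all tested genes were called (edgeR's quasi-likelihood test, adjusted p under 0.05), and 0 were called at 10 min and at 30 min, where 0.137% and 0.332% were. At an unadjusted p under 0.05 the count of members was also 0 at each of the 3 times, against 14.3%, 5.13% and 8.12% of all genes. DESeq2 and the other alternatives also called 0 members at these times. The 30 log2 fold changes lay between -0.10 and 0.13, and the lowest adjusted p of edgeR was 0.570. Apart from BOP1, the 95% intervals of the log2 fold changes stayed within -0.20 and 0.29. Changes of the 9 other members beyond those bounds were therefore outside the intervals, and a change within its own interval remains possible for each.

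By 240 min most of the nucleolar members had risen. Of the 10 members 7 were higher than at 0 min and 0 were lower, while 20.6% of all tested genes were called higher and 20.4% lower (edgeR, adjusted p under 0.05). The members' median log2 fold change was 0.51, and that of all tested genes was -0.0026. In 9 of the 10, BOP1 being the exception, both 240 min libraries stood above both 0 min libraries, a pattern found in 34.8% of all tested genes. Scaled by the spike-in counts instead of TMM, the median of all genes shifted to -0.12 and that of the members to 0.39. The 7 kept a positive fold change, and 2 of them, NOP58 and RRS1, remained called. Under this scaling 331 of the 13852 tested genes were called higher and 728 lower. The summed CPM of the 9 nucleolar members ran from 2668.1 to 2852.9 in the 8 libraries up to 30 min and reached 3914.7 and 3522.2 at 240 min.

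**Figure D1:**
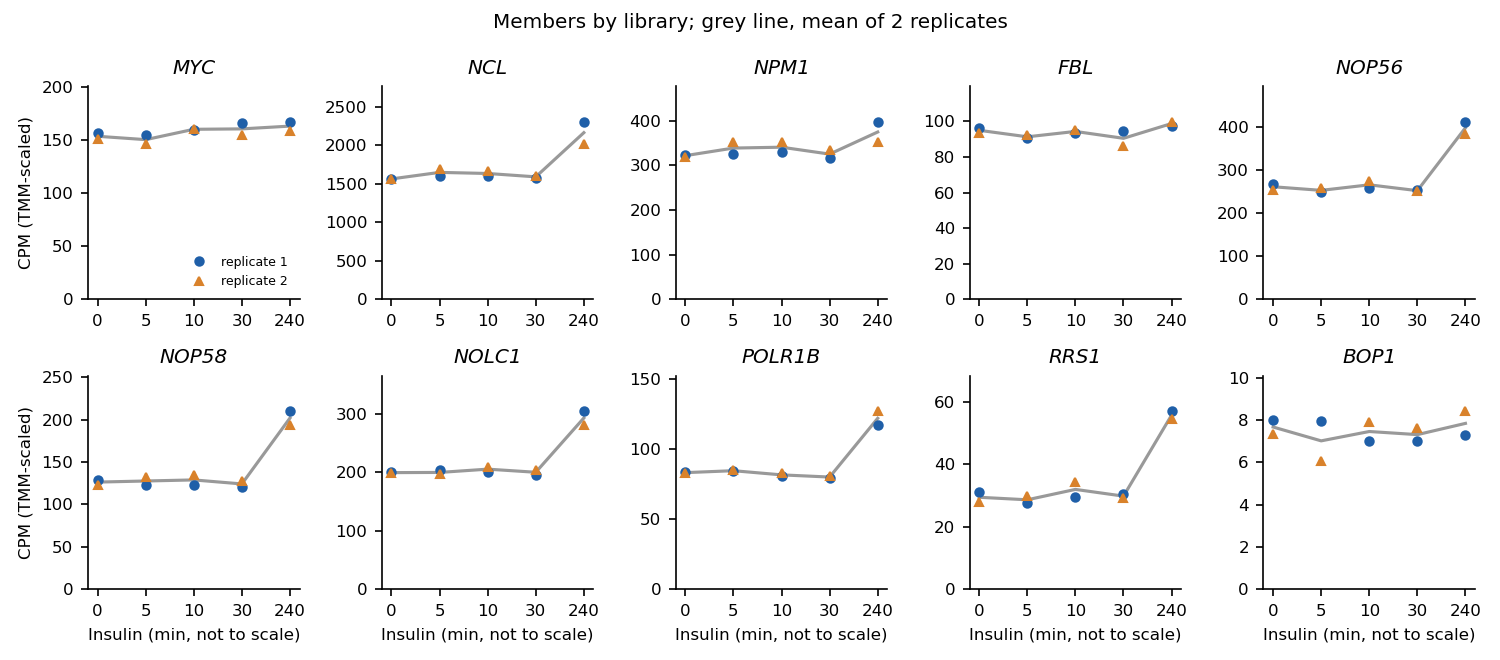
Expression of the 10 members in each library (vertical axis, CPM after TMM scaling, starting at 0 with its own range in each panel) at 0, 5, 10, 30 and 240 min of insulin (horizontal axis, not to scale). Circles are replicate 1, triangles replicate 2 and the grey line their mean; NCL, NOP56, NOP58, NOLC1, POLR1B and RRS1 stay level to 30 min and are higher in both 240 min libraries, while MYC moves between 145.6 and 167.1 CPM over all 10 libraries.

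The large subunit factor RRS1 rose the most of the 10. It had 31.0 and 27.9 CPM at 0 min, between 27.5 and 34.3 CPM in the 6 libraries from 5 to 30 min, and 57.1 and 54.6 CPM at 240 min. Both 240 min libraries lay above every earlier one. The fold was 1.91 (95% interval 1.72 to 2.13), a log2 fold change of 0.93 (SE 0.0735, edgeR adjusted p = 1.32e-08), which ranked 295 among the 13852 genes tested. With spike-in scaling it was 0.81 (edgeR adjusted p = 0.00138).

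The C/D box core proteins NOP58 and NOP56 came next. NOP58 had 129.2 and 123.4 CPM at 0 min, 120.6 to 134.5 CPM in between, and 209.8 and 194.0 CPM at 240 min. NOP56 had 268.2 and 254.0 CPM at 0 min, 248.3 to 273.5 CPM in between, and 412.5 and 383.5 CPM at 240 min. For both genes the 240 min libraries did not overlap any earlier library. NOP58 was higher by 0.68 on the log2 scale (SE 0.0564, edgeR adjusted p = 2.50e-08), with a fold between 1.48 and 1.74 at 95%, and ranked 682. NOP56 was 1.53-fold higher (1.42 to 1.64; log2 0.61, SE 0.0514, edgeR adjusted p = 3.08e-08) and ranked 880. Per length, NOP58 moved past the methylase FBL in the order of levels, with 268.5 and 253.4 TPM at 240 min against 210.8 and 219.8 TPM for FBL. With spike-in scaling NOP58 stayed called (log2 0.56, edgeR adjusted p = 0.0389) and NOP56 did not (log2 0.49, adjusted p = 0.0861).

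FBL, the catalytic partner of NOP56 and NOP58 in the same particles, showed no such rise. Its libraries had 96.2 and 93.7 CPM at 0 min, 86.1 to 95.1 CPM in between, and 97.7 and 99.9 CPM at 240 min. Both 240 min libraries were the highest of the 10, by a margin of a few percent. The log2 fold change was 0.06 (95% interval -0.05 to 0.17, edgeR adjusted p = 0.399), and it was -0.06 with spike-in scaling, which is 0.06 above the median of all genes under that scaling (-0.12). The interval of FBL ended below those of NOP56 (0.50 to 0.72) and NOP58 (0.56 to 0.80), although the difference between these genes was not itself tested.

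The snoRNP chaperone NOLC1 and the polymerase I subunit POLR1B rose by similar amounts. NOLC1 had 200.7 and 198.0 CPM at 0 min, 196.1 to 209.6 CPM in between, and 304.2 and 281.5 CPM at 240 min. POLR1B had 83.7 and 82.7 CPM at 0 min, 79.1 to 84.9 CPM in between, and 117.1 and 127.0 CPM at 240 min. Each was above all earlier libraries in both replicates. The folds were 1.47 for NOLC1 (1.37 to 1.58; log2 0.56, SE 0.0497, edgeR adjusted p = 5.71e-08) and 1.47 for POLR1B (1.36 to 1.58; log2 0.55, SE 0.0503, edgeR adjusted p = 7.35e-08). Neither call held with spike-in scaling (log2 0.44 and 0.43, edgeR adjusted p = 0.138 and 0.147). In TPM, NOLC1 passed MYC in the order of levels, with 194.0 and 183.9 at 240 min against 178.0 and 172.2 for MYC.

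The genes of the abundant nucleolar proteins nucleolin and nucleophosmin were also higher at 240 min. NCL went from 1568.0 and 1561.3 CPM at 0 min to 2310.6 and 2021.5 CPM at 240 min, with 1578.2 to 1694.0 CPM in between. It was 1.38-fold higher (1.27 to 1.51; log2 0.47, SE 0.0590, edgeR adjusted p = 3.73e-06). NPM1 had 324.3 and 319.7 CPM at 0 min, 317.1 to 352.8 CPM in between, and 398.5 and 351.6 CPM at 240 min. The second 240 min library of NPM1 thus lay inside the range of the earlier times, though above both 0 min libraries. NPM1 was 1.17-fold higher (1.07 to 1.27; log2 0.22, SE 0.0594, edgeR adjusted p = 0.00564), and without 240 min replicate 1 its log2 fold change was 0.13 (edgeR adjusted p = 0.149). With spike-in scaling neither NCL (log2 0.36) nor NPM1 (log2 0.11) passed (edgeR adjusted p = 0.282 and 0.790).

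BOP1 had 8.0 and 7.3 CPM at 0 min, 6.1 to 8.0 CPM in between, and 7.3 and 8.4 CPM at 240 min. The groups overlapped, and the log2 fold change was 0.04 with the widest interval of the 10 members (-0.24 to 0.31, edgeR adjusted p = 0.852). It was -0.09 with spike-in scaling (0.03 above the median of all genes), -0.04 without 0 min replicate 2 and -0.06 without 240 min replicate 2. PES1 and WDR12, the partners of BOP1 in large subunit assembly, were looked at after the values were seen: PES1 was higher by a log2 fold change of 0.42 (edgeR adjusted p = 3.47e-05) and WDR12 by 0.25 (edgeR adjusted p = 0.000911). The estimate of PES1 lay above the interval of BOP1 and that of WDR12 inside it.

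The RNA of MYC itself varied little between the 5 times sampled. No library was taken between 30 and 240 min, so that a passing change within that span would not be seen. The level of MYC protein was not measured in these libraries. The libraries had 155.9 and 150.6 CPM before insulin, 154.5 and 145.6 CPM after 5 min, 159.5 and 160.1 CPM after 10 min, 165.8 and 154.7 CPM after 30 min, and 167.1 and 158.5 CPM after 240 min. The 240 min libraries were both above the 0 min libraries, yet 158.5 CPM was lower than 3 libraries of the 10 and 30 min groups. The log2 fold changes were -0.03, 0.06, 0.07 and 0.09 at 5, 10, 30 and 240 min, and the 240 min value had a 95% interval of -0.02 to 0.20 (edgeR adjusted p = 0.172). With spike-in scaling the values at 10, 30 and 240 min were -0.26, -0.06 and -0.03, while the median of all genes moved to -0.33, -0.13 and -0.12. Relative to that median MYC was at 0.06, 0.07 and 0.09. The highest and the lowest library of MYC differed 1.15-fold, against 2.07-fold for RRS1. The upper bound of MYC lay below the lower bounds of NCL, NOP56, NOP58, NOLC1, POLR1B and RRS1, but the difference between MYC and these genes was not tested.

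**Figure D2:**
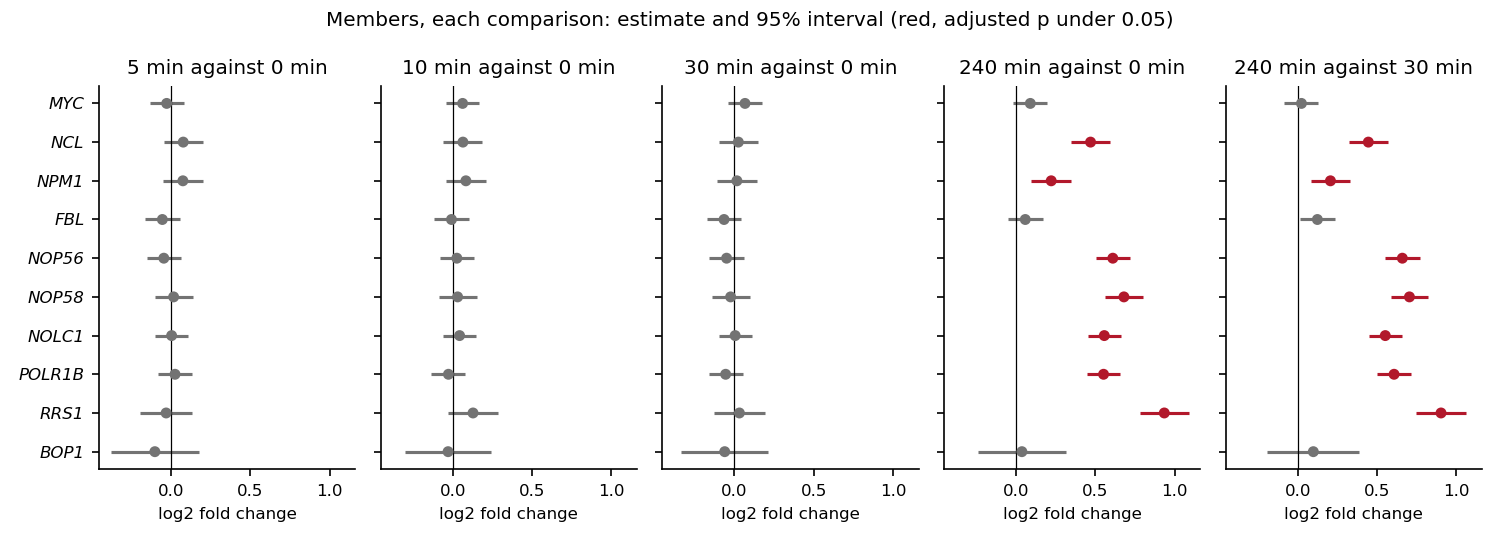
Log2 fold changes of the 10 members (rows) in each of the 5 comparisons (panels), with 95% intervals from edgeR's quasi-likelihood test as horizontal lines and red marking an adjusted p under 0.05. All 30 intervals of the early panels include 0, and 7 members are red in each of the 240 min panels; the intervals of BOP1 are the widest.

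The genes whose log2 CPM followed MYC most closely over the 10 libraries, among the 10387 genes that averaged 5 CPM or more, were COMMD9, PIGZ, ABT1, POP7 and RNF126. Their Pearson correlations were 0.93, 0.90, 0.88, 0.88 and 0.87, and their Spearman correlations 0.92, 0.87, 0.85, 0.89 and 0.87. None of them is among the other members. The points share library depth and composition, and the coefficients are given as a description only. The mean of COMMD9 moved between 15.3 and 16.7 CPM over the times, and that of RNF126 between 25.06 and 32.96 CPM.

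The comparison of 240 min with 30 min asks whether the rise came after the first 30 min. It shares the 240 min libraries with the comparison above and is therefore not separate evidence. Against 30 min, 7 members were higher and 0 lower, while 19.8% of all tested genes were called higher and 18.4% lower (edgeR, adjusted p under 0.05). The log2 fold changes were 0.90 for RRS1 (SE 0.0752, edgeR adjusted p = 2.74e-08), 0.70 for NOP58, 0.66 for NOP56, 0.61 for POLR1B, 0.55 for NOLC1, 0.44 for NCL and 0.21 for NPM1. Against 0 min the same genes, in the same order, had 0.93, 0.68, 0.61, 0.55, 0.56, 0.47 and 0.22. With spike-in scaling 5 members stayed called in this comparison, and NCL (edgeR adjusted p = 0.152) and NPM1 (0.624) did not. Under that scaling 573 of the 13852 tested genes were called higher and 344 lower against 30 min. NPM1 also missed the threshold without 240 min replicate 1 (log2 0.11, edgeR adjusted p = 0.217) and without 30 min replicate 1 (log2 0.17, adjusted p = 0.0942).

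MYC (log2 0.02, 95% interval -0.08 to 0.13) and BOP1 (0.10, -0.19 to 0.39) did not pass against 30 min either, and both took a value below 0 when single libraries were left out. FBL was close to the threshold, with a log2 fold change of 0.12 (0.01 to 0.23, edgeR adjusted p = 0.0721). Leaving out 30 min replicate 1, the higher of the 30 min libraries for FBL, gave 0.20 (edgeR adjusted p = 0.0186), and upper-quartile normalization and limma on TPM also put FBL past the threshold. In 8 of the 10 members both 240 min libraries stood above both 30 min libraries, as in 33.7% of all tested genes.

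**Figure D3:**
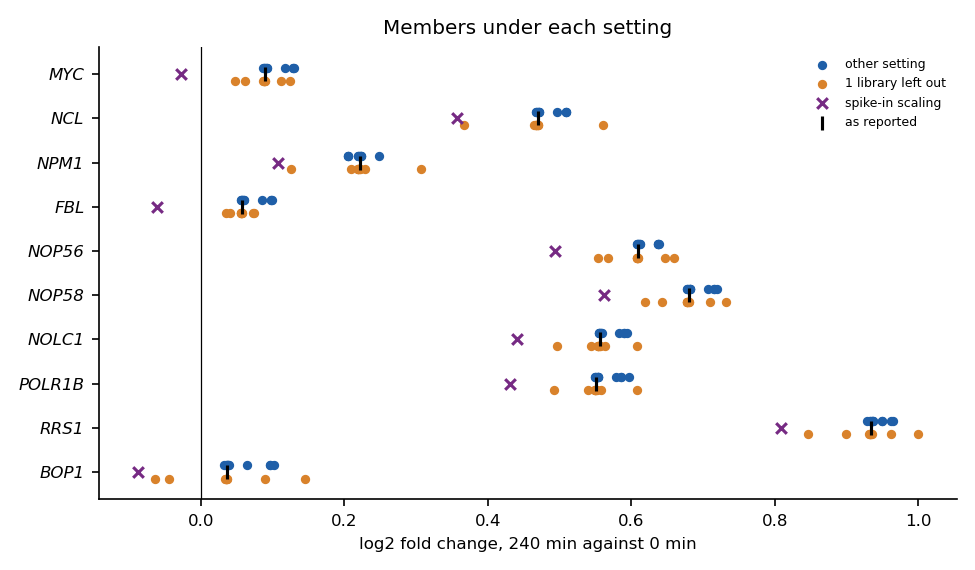
Log2 fold change of each member at 240 min against 0 min (horizontal axis) as reported (black bar), under other tests, filters and scalings (blue), with 1 library left out (orange) and with spike-in scaling (purple cross). The 7 called members are above 0 in every setting shown, while MYC, FBL and BOP1 have a cross to the left of 0, under a scaling that moved the median of all genes to -0.12.

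Genes of the MYC transcription factor network were found among both the higher and the lower genes at 240 min. Of the 12 tested genes of this list 3 were higher, 4 lower and 5 not called against 0 min, beside 20.6% of all tested genes higher and 20.4% lower, so that both counts were near the background. Their median log2 fold change was -0.13. MXD4, a MAX partner known to oppose MYC, fell from 65.0 and 70.2 CPM to 41.7 and 42.8 CPM (log2 -0.68, edgeR adjusted p = 1.38e-07). MXI1, another such repressor, fell from 19.6 and 21.3 CPM to 14.8 and 14.1 CPM (log2 -0.50, edgeR adjusted p = 6.88e-05). Both falls stayed called with spike-in scaling, which moved the median of all genes to -0.12 and called 728 genes lower and 331 higher. MGA, a MAX-binding repressor, rose by a log2 fold change of 0.19 (edgeR adjusted p = 0.00463, and 0.0519 without 0 min replicate 1). FBXW7, which encodes a ubiquitin ligase subunit that targets MYC protein, rose by 0.23 (edgeR adjusted p = 0.0134, and 0.121 without 0 min replicate 2). MXD1, of the same family as MXD4, rose by 0.19 (edgeR adjusted p = 0.0312, and DESeq2 adjusted p = 0.127). MAX, the obligate partner, had a log2 fold change of -0.07 (edgeR adjusted p = 0.419). MXD1 and MAX were looked at after the values were seen. MYCN had at most 3 reads in a library and was not tested. With DESeq2 4 genes of the list were called, FBXW7 not among them (DESeq2 adjusted p = 0.0626). With spike-in scaling MGA, FBXW7 and MXD1 lost their calls (edgeR adjusted p = 0.869, 0.801 and 0.885).

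Most of the other ribosome biogenesis genes listed went in the same direction as the members that rose. The lists were chosen with earlier results of these data known, so their counts are a description and not separate evidence. In 4 lists that hold no member, 78 of 128 tested genes (60.9%) were higher at 240 min than at 0 min. Another 4 were lower and 46 were not called. Of all tested genes 20.6% were higher and 20.4% lower. The median log2 fold change of the 128 genes was 0.25, beside -0.0026 for all genes. No gene of these lists was called at 5, 10 or 30 min. Of the polymerase I machinery 11 of 20 genes were higher and 1 lower. CD3EAP, a polymerase I subunit, rose from 19.0 and 16.6 CPM to 37.1 and 33.5 CPM (log2 1.01, edgeR adjusted p = 2.07e-08). UBTF, the factor that opens ribosomal DNA for transcription, rose by 0.54 (edgeR adjusted p = 9.59e-08), beside 0.55 for POLR1B. POLR1D, a subunit shared with polymerase III, fell by 0.25 on the log2 scale (edgeR adjusted p = 0.000631).

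Of the snoRNP proteins and assembly factors 5 of 14 were higher and 1 lower, beside 20.6% and 20.4% of all tested genes. The share higher was smaller than in the other 3 lists, though the difference was not tested. NUFIP1, an assembly factor of C/D box particles, had a log2 fold change of 0.68 (edgeR adjusted p = 7.44e-06), and GAR1, an H/ACA core protein, had 0.52 (edgeR adjusted p = 3.03e-05). The small subunit processome had 29 of 46 genes higher and 0 lower, led by UTP15 (0.87) and PNO1 (0.84), with edgeR adjusted p of 9.03e-09 and 6.72e-09. Large subunit assembly, the list nearest to RRS1 and BOP1 in role, had 33 of 48 higher and 2 lower, led by RRP15 (0.86) and PAK1IP1 (0.84), with edgeR adjusted p of 9.37e-09 and 1.40e-08. The genes lower in the last 3 lists were PIH1D1 (-0.20), NMD3 (-0.19) and RSL24D1 (-0.15), and each of these calls was lost when single 0 or 240 min libraries were left out. With spike-in scaling 1, 0, 3 and 6 genes of the 4 lists, in the order given, stayed called. All of these were higher, beside 331 of the 13852 tested genes called higher under that scaling.

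**Figure D4:**
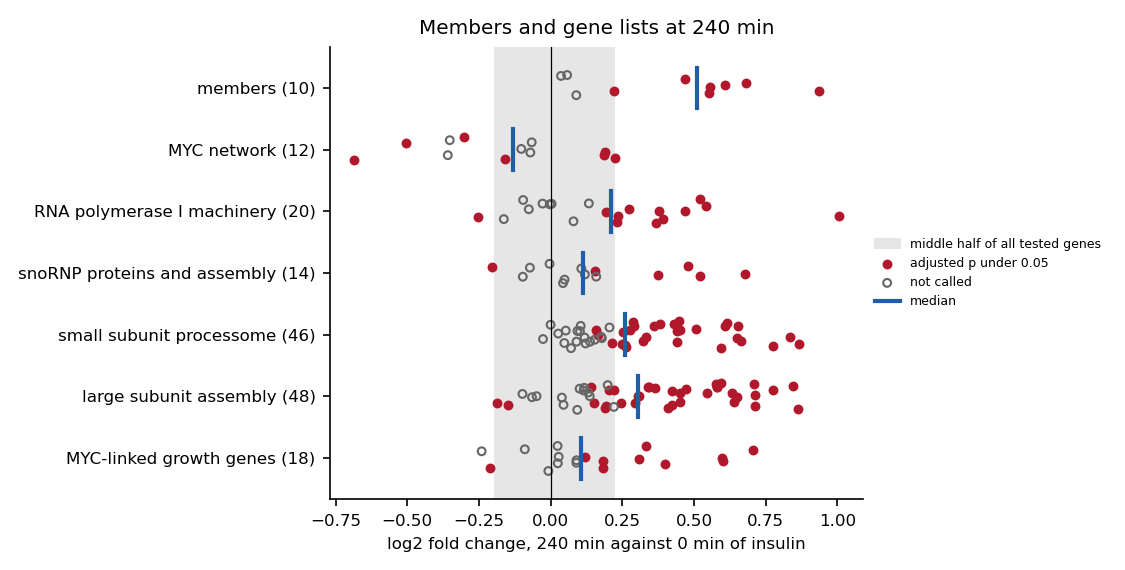
Log2 fold change of each tested gene at 240 min against 0 min (horizontal axis) in the members and the 6 gene lists (rows, number of tested genes in brackets). Filled red points passed an adjusted p under 0.05 by edgeR, open points did not, blue bars are medians and the grey band spans the interquartile range of all tested genes; the members' bar lies at 0.51, outside the band, and that of the MYC network at -0.13.

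Several members hold genes of small nucleolar RNAs (snoRNAs), the guide RNAs of snoRNPs, within their bodies. On the gene's own strand, the authors' gene positions place 5 snoRNA genes inside NOP56, 3 inside NCL and 3 inside NOP58, and 0 inside the other 7 members. All 3 hosts were among the members that rose. The counts used here are of the host genes, and the snoRNAs were not analysed.

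Promoter sequence was compared between members that rose and FBL, which did not pass the test. RefSeq promoters (assembly GRCh38.p14), 250 bases before to 50 after a gene's start, were searched for NCL, NPM1, FBL, NOP56 and POLR1B, matched by symbol, for the E-box CACGTG, the CCAAT box (CCAAT or ATTGG), the ETS letters CCGGAAG or CTTCCGG, and TATATA, on both strands. No motif contains another. Positions count from the RefSeq start base as 0. In each of the 5 it differs from the start of the gene body given above, for NOP56 2633278 against 2633178. The NOP56 bases shown therefore run into that gene body. Distances of IR peaks, below, count from the start of the gene body instead. Shown first are the upstream bases of NCL and NOP56, up to the first base of any annotated UTR, then the 30 bases around the only E-box found among the 5, in FBL, each on the gene's strand, with motif letters in capitals and hg19 coordinates from an exact match.
NCL, chr2:232329263-232329445, minus strand: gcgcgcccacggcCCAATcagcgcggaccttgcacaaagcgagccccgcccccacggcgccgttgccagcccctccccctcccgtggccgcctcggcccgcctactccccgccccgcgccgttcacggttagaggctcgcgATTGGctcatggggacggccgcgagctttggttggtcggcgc
NOP56, chr20:2633028-2633238, plus strand: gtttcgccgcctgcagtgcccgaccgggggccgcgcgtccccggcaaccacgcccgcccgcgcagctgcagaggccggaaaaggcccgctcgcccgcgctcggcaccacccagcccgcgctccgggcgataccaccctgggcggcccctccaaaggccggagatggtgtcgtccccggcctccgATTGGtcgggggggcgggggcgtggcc
FBL, chr19:40336996-40337025, minus strand: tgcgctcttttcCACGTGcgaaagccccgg

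The E-box of FBL begins 6 bases after its RefSeq start, and 7.26% of the 35116 promoters in the table hold these letters. NCL holds the CCAAT box at -237 and -109, FBL at -223 and -209, and NOP56 at -66, and 34.6% of all promoters hold it. The ETS letters stand at -193 in FBL and -126 in POLR1B (10.3% of all promoters), and TATATA at -27 and -25 in NPM1 (3.99%). FBL therefore held the E-box, the CCAAT box and the ETS letters in 1 promoter while its RNA did not pass the test, and NCL and NOP56, which rose, held the CCAAT box alone of the 4 motifs. A match is a run of letters, not a shown site, and promoters of the other members were not searched.

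Peaks of the IR library stood at the starts of 2 members. Within 5 kb of the gene body 2 of the 10 members (20%) had a peak, against 2173 of the 13852 tested genes (15.7%), a share near the background. The POLR1B peak, at chr2:113299680-113300145 (hg19), was 466 bases wide and covered bases 188 to 653 after the start of the gene. Its score, as the authors' table gives it, was 314, rank 378 of the 1971 peaks. The RRS1 peak, at chr8:67340802-67341193, was 392 bases wide, lay 461 to 70 bases before the start, and had a score of 107, rank 812, with RP11-346I3.4 as the nearest gene in the authors' annotation. Both scores were above the median of 79. POLR1B and RRS1 are also members that rose at 240 min, whereas NCL, NOP56, NOP58 and NPM1 rose with no peak within 5 kb. NOLC1 had its nearest peak 18907 bases before its start, with a score of 1763 (rank 71). The authors' annotation names LDB1 as the gene nearest to that peak, at a distance of -12478 bases. It also labels the peak as lying at a promoter, so that these entries do not settle which gene the peak belongs to. MYC, FBL and BOP1 had none within 20 kb. The ChIP-seq has 1 library, so that these peaks have no replicate check.

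**Figure D5:**
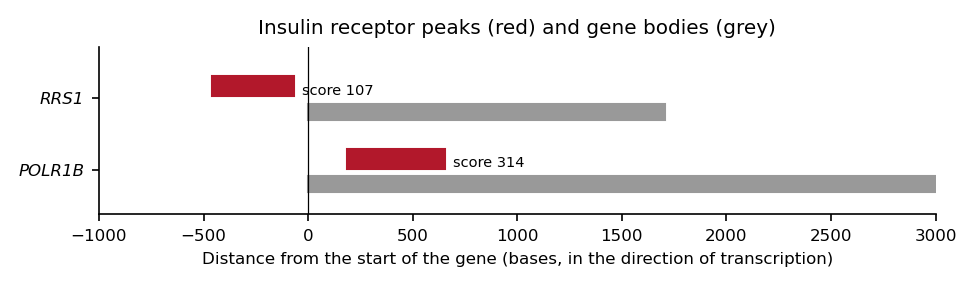
Insulin receptor peaks (red bars) and gene bodies (grey bars) at RRS1 and POLR1B, drawn by distance in bases from the start of each gene in the direction of transcription; the body of POLR1B runs on past the right edge. The RRS1 peak ends 70 bases before the start and the POLR1B peak begins 188 bases after it.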

How the data were processed

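The data were 10 RNA libraries of HepG2 cells (2 for each of 5 times after insulin) and 1 IR ChIP-seq library. The authors trimmed reads with Trim Galore 0.6.4, aligned them to hg19 with STAR 2.6.1d, counted them per gene by strand with featureCounts 1.6.4 and deposited raw counts. The authors also deposited StringTie levels in TPM, and a peak table with a score per peak from BWA 0.7.17-r1188, MACS2 2.2.7.1 and HOMER. The input library was not analysed here.

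Counts of all genes were fitted at once with edgeR 4.0.16 (R 4.3.3): TMM, filterByExpr by time, quasi-likelihood tests from a single fit of all 10 libraries with no block, and Benjamini-Hochberg adjustment over 13852 genes, called at an adjusted p under 0.05. Scripts were tested on simulated data. Intervals are 95%, on the log2 scale. Alternatives were DESeq2 1.42.0, other scalings (RLE, upper quartile, ERCC totals), no filter, at least 10 counts in every library, only the times compared, a replicate block, a likelihood ratio test, limma 3.58.1 for TPM (log2 with 1 or 0.1 added, or only genes averaging 1 TPM or more), and each library left out. A peak was assigned within 5 kb of a gene body (1 and 20 kb as alternatives). Gene and snoRNA positions came from the deposited StringTie tables, and UTRs and the NPM1 pseudogenes from GENCODE v44lift37 on GRCh37, the build of hg19.

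The members and lists were chosen with earlier results of these data known. Named genes were the members; per list, among called genes averaging 5 CPM or more and with groups that do not overlap, the 2 largest rises and the 2 largest falls (all, where 5 or fewer were called); and the 5 genes most correlated with MYC. Others are said to have been looked at afterwards.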

Additional observations from a re-analysis of the deposited data

Results flagged for a closer look

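For 7 members the level at 240 min differed from that at 30 min, by the direct test between these times with edgeR (adjusted p under 0.05, 2 libraries each). All 7 were higher, while the same test called 19.8% of all tested genes higher and 18.4% lower. Insulin and elapsed time cannot be told apart here. The differences in log2 were 0.44 for NCL, 0.21 for NPM1, 0.66 for NOP56, 0.70 for NOP58, 0.55 for NOLC1, 0.61 for POLR1B and 0.90 for RRS1. In each of the 7, both 240 min libraries were above both 30 min libraries, as in 33.7% of all tested genes. NPM1 has the smallest difference and lost its call without 240 min replicate 1 or 30 min replicate 1.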

How the results depend on the processing

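The 7 members called at 240 min against 0 min were called in every alternative except spike-in scaling, which kept 2, and the fit without 240 min replicate 1, which kept 6. The other 3 and all members at the early times stayed uncalled throughout, apart from FBL against 30 min. Spike-in scaling called 2 members, with a members' median of 0.39, and 1059 genes at 240 min against 0 min and 917 against 30 min, in place of 5676 and 5297. It called 2, 1, 0, 3, 6 and 1 genes of the MYC network, polymerase I, snoRNP, small subunit, large subunit and growth gene lists, and DESeq2 called 4 of the MYC network. With it MYC turned to -0.262, -0.0636 and -0.0279 at 10, 30 and 240 min, FBL to -0.0618 and BOP1 to -0.0878, while the median of all genes moved to -0.33, -0.13 and -0.12 at these times. Relative to that median MYC was at 0.0640, 0.0702 and 0.0908, FBL at 0.0569 and BOP1 at 0.0309, so that these signs turned with the shift of all genes. The cause of the lost calls was not tested.

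At 5 min 0 genes were called, 1 with DESeq2, with only the times compared, with the replicate block and with limma on log2(TPM + 1) and log2(TPM + 0.1), 2 with spike-in scaling and with limma on a mean of at least 1 TPM, 144 without a filter and 19 with the likelihood ratio test. At 10 min the 19 calls became 74 without a filter, 40 with only the times compared, 43 with the likelihood ratio test and 1, 4 and 1 with limma. At 30 min the 46 became 4 with spike-in scaling, 160 without a filter, 96 with the likelihood ratio test and 9, 8 and 8 with limma. Leaving out single libraries gave 0 to 22, 9 to 24 and 18 to 53 genes at these times, the extremes without 5 min replicates 2 and 1, without 10 min replicate 2 and 30 min replicate 1, and without 0 min replicate 1 and 240 min replicate 1. The members' median then ran from 0.43 to 0.53 against 0 min and from 0.42 to 0.54 against 30 min, lowest without 240 min replicate 1, and 6 to 10 growth genes were called, fewest without 0 min replicate 2. MYC then lay between -0.0727 and 0.0132 at 5 min (above 0 without 5 min replicate 2) and between -0.0263 and 0.0737 for 240 min against 30 min (below 0 without 30 min replicate 2, and at -0.0182 without 240 min replicate 1). BOP1 lay between -0.0639 and 0.145 for 240 min against 0 min, at -0.0443 without 0 min replicate 2, and between -0.0023 and 0.207 against 30 min.

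No uniform pairing by replicate number was seen: 10 correlations of the replicate differences between times ran from -0.35 to 0.32, 5 of them above 0.1. These values cannot settle whether libraries of the same number share a batch. With the replicate block 7 members were called in each 240 min comparison, and 1, 21, 59, 5845 and 5477 genes in the 5 comparisons. BOP1, with 127 to 326 reads, had the widest interval.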

Other observations

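A list of growth genes that are linked to MYC and act outside the nucleolus was also counted at 240 min. Of the 18 tested, 9 were higher, 1 lower and 8 not called against 0 min, beside 20.6% of all tested genes higher and 20.4% lower, and their median log2 fold change was 0.11 beside -0.0026 for all tested genes. SLC7A5, a transporter of large neutral amino acids, rose from 238.9 and 218.1 CPM to 375.8 and 368.3 CPM (log2 0.71, edgeR adjusted p = 2.46e-08). EIF4E, the cap-binding translation factor, rose from 24.7 and 22.1 CPM to 35.1 and 35.4 CPM (log2 0.60, edgeR adjusted p = 2.74e-06), and limma on TPM did not call it (adjusted p = 0.0638 to 0.0700). CAD, the enzyme that starts pyrimidine synthesis, fell from 83.8 and 85.9 CPM to 71.4 and 75.5 CPM (log2 -0.21, edgeR adjusted p = 0.00637), and lost its call without 0 min replicate 2 (0.0605) or 240 min replicate 1 (0.0807).

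IR peaks within 5 kb stood at 6 of the 20 genes of the polymerase I machinery (30%). Of these, POLR1A, CD3EAP, UBTF and RRN3 were higher at 240 min, and POLR2E and POLR2H had log2 fold changes of 0.0034 and -0.0029. Peaks also stood at MAX, MXD4 and MXI1 in the MYC network (3 of 12) and at 1 of 14 snoRNP genes (7.14%). The small and large subunit lists had them at 5 of 46 and 6 of 48 genes (10.9% and 12.5%), and the growth genes at 2 of 18 (11.1%). Over all tested genes the share was 15.7%, and the differences between the lists and that share were not tested. MXD4 and MXI1 were lower at 240 min and MAX was not called.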
